A study of Mus musculus with 19 samples.

Results

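The nuclear-encoded subunits of oxidative phosphorylation were 86 of the 16941 genes counted in 19 RNA libraries of cultured mouse microglia. They were chosen by symbol: genes named Nduf with a letter a, b, c, s or v and a number, Ndufab1, the 4 Sdh genes, and genes named Uqcr, Cox4 to Cox8 or Atp5. Mitochondrially encoded genes were left out. By name, 39 members belong to complex I, 4 to complex II, 8 to complex III, 17 to complex IV and 18 to complex V. Ndufa4, whose protein is now placed in complex IV, was counted with complex I by its symbol. Cox5b-ps is named as a pseudogene, and the complex III subunit Cyc1 was not matched by the symbols.

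Oxidative phosphorylation passes electrons from NADH (complex I) and succinate (complex II) through complexes III and IV to oxygen, and complex V makes ATP from the proton gradient. Each complex other than complex II combines subunits made from nuclear genes with subunits made from mitochondrial DNA. Macrophages and microglia given lipopolysaccharide (LPS, a bacterial cell wall component) are known to lower respiration and raise glycolysis, and itaconate, made by the enzyme encoded by Acod1, inhibits succinate dehydrogenase.

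The cells were described as cortical microglia of C57BL/6 mice aged 10 to 11 months, either wild type (WT) or carrying the hAPPJ20 transgene (PDGFAPPSw,Ind; APP), a mutant human amyloid precursor protein under a PDGF promoter, which is known mainly for expression in neurons. All cells were grown for 4 weeks in 10% serum with 5 ng/mL macrophage colony-stimulating factor, then given medium alone (vehicle) or 100 ng/mL LPS for 6 h, and were collected after 16 h in fresh medium. WT cells gave 4 libraries with vehicle and 5 with LPS, and APP cells gave 5 with each, from RNA with an integrity number above 8.5. The labels number the replicates but do not say that each came from a separate animal or culture, so the p-values rest on the spread of the libraries alone, some of which may be technical.

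Libraries held 13065257 to 31248988 counts, with a median of 21918747. Values are given as CPM, counts scaled to a fixed library total after TMM correction. The libraries count tags at the 3′ end of transcripts, so a level was not divided by transcript length, and levels of different genes compare tag numbers. The microglial markers Tmem119 and P2ry12 were low, at 0 to 17.2 and 0 to 28.6 CPM, with 0 counts in 3 and 6 libraries. C1qc, a complement gene of microglia and macrophages, ranged from 89.9 to 1194 CPM. The stromal transcripts Lrrc17, Dcn and Col1a1 ranged from 21307 to 77878, 555 to 2461 and 74.4 to 649 CPM. The part of these other cells in the subunit levels was not tested, and in RNA from whole cultures fewer cells of a type and less RNA per cell cannot be told apart.

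The subunit transcripts were abundant in these cultures. Together the 86 members made up 1.49% to 2.87% of a library, and 61 had a mean of at least 100 CPM. A count was present in all 19 libraries for 79 members. The 82 members that passed the filter on low counts entered the tests, and the others were Cox4i2, Ndufa4l2, Cox7b2 and Cox5b-ps. Among the 78 members with a mean of at least 20 CPM, the median coefficient of variation within a group was 25.3%, against 32.2% over all 6214 tested genes above that minimum; these sets were not matched for level. On average, complex I took 30.9% of the module's tags, complex II 2.14%, complex III 8.84%, complex IV 26.3% and complex V 31.8%.

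In complex I the highest mean level was that of Ndufc1, an accessory membrane subunit, at 568 CPM, with a range of 328 to 797. Core subunits that hold the flavin or iron-sulfur clusters were unequal. Ndufv2 had a mean of 137 CPM, Ndufs1 39.8 CPM, Ndufv1 26.1 CPM and Ndufs8 9.38 CPM. Ndufs8 ranged from 0.166 to 25.6 CPM. In complex II, the flavoprotein gene Sdha had a mean of 150.3 CPM and the iron-sulfur gene Sdhb 134 CPM. The membrane anchor genes were unequal, at 179.5 CPM for Sdhc and 37.9 CPM for Sdhd. In complex III the core protein gene Uqcrc1 was lowest, at 32.3 CPM, and the small accessory subunit gene Uqcrq highest, at 449 CPM, while the Rieske iron-sulfur protein gene Uqcrfs1 had 174 CPM.

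In complex IV, Cox7c and Cox6c, both small subunits, had the highest means, 1746 and 1120.5 CPM, and Cox4i1, which carries the site of ATP regulation, had 199 CPM. In complex V the highest was Atp5mg, subunit g of the membrane part, at 1320.0 CPM, and the lowest Atp5f1d, subunit delta of the rotor stalk, at 77.6 CPM. The 3 genes for the c subunit, which forms the rotor ring and has the same mature protein from each, were unequal. Atp5mc3 had a mean of 1206 CPM, Atp5mc1 142 CPM and Atp5mc2 144 CPM. Atp5if1, the inhibitor that blocks ATP hydrolysis by the enzyme, had 592 CPM with a range of 377 to 811.

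**Figure D1:**
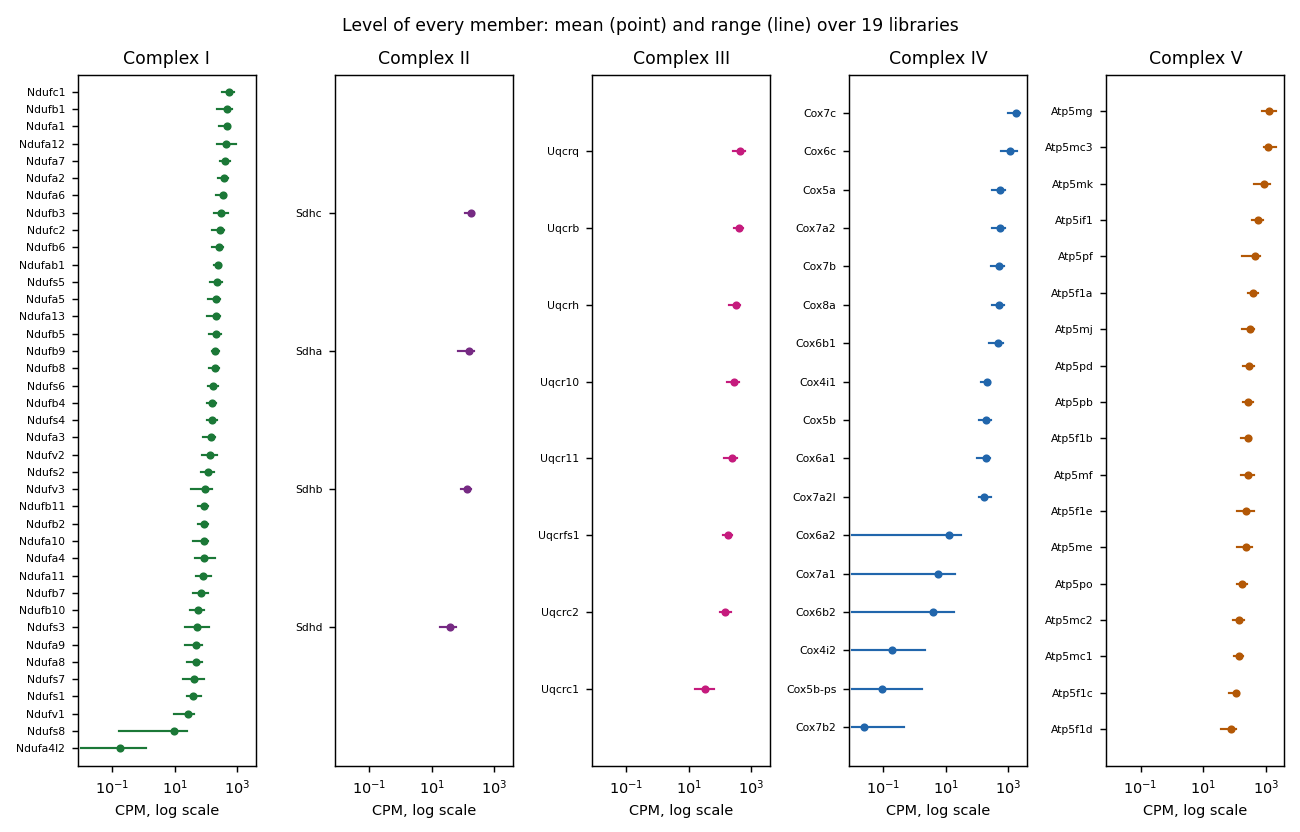
Level of each of the 86 members in CPM on a log axis, with the mean over 19 libraries as a point and the lowest to highest library as a line; a lowest value of 0 is drawn at 0.01 CPM. Most members lie above 20 CPM, while Ndufa4l2, Cox4i2, Cox5b-ps and Cox7b2 have means under 1 CPM.

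Isoforms known from heart and muscle, testis or hypoxic cells were rare beside their ubiquitous partners. Cox4i2, the hypoxia-linked partner of Cox4i1, was at 0 in 17 libraries and had 30 and 47 counts in the other 2, 1.37 CPM in WT vehicle replicate 3 and 2.20 CPM in APP LPS replicate 2. Ndufa4l2, the hypoxia-linked partner of Ndufa4, was at 0 in 15 libraries and reached 1.18 CPM. Cox7b2, a testis isoform, had 12 counts in 1 library. Where a library had 0 counts, 3 counts would correspond to 0.0962 to 0.249 CPM, a limit that covers counting error only.

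The muscle isoforms were present in most libraries at low levels. Cox6a2 ranged from 0 to 30.8 CPM, against 95.7 to 254 CPM for Cox6a1. Cox7a1 ranged from 0 to 19.3 CPM, against 295 to 800.3 CPM for Cox7a2. The testis isoform Cox6b2 ranged from 0 to 18.7 CPM, against 246 to 687 CPM for Cox6b1. The single highest value of each stood in a different library, but high values also coincided. WT vehicle replicate 2 was high for Cox6b2 and Cox7a1, with 0.739 CPM of Cox6a2. WT LPS replicate 1 was high for Cox6a2, at 28.7 CPM, and for Cox7a1. Cox6b2 had 18.02 CPM in WT vehicle replicate 2 and 18.7 CPM in APP vehicle replicate 1. Cox7a1 had 19.3 CPM in WT vehicle replicate 2, 18.1 CPM in WT LPS replicate 1 and 14.02 CPM in APP LPS replicate 3.

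The comparison of LPS with vehicle asked how the inflammatory stimulus changed the subunit transcripts after recovery. The summed level of all members was 23604, 27531, 24870 and 19088 CPM in WT vehicle and 28724, 26259, 25460, 22858 and 14883 CPM in WT LPS. In APP it was 20304, 26793, 23942, 24957 and 18831 CPM with vehicle and 21636, 25190, 26605, 26397 and 16981 CPM with LPS. The groups overlapped, and within each the last replicate listed was the lowest. The group means were 23773 ± 3526 (SD, n = 4), 23636 ± 5322 (SD, n = 5), 22965 ± 3307 (SD, n = 5) and 23362 ± 4086 CPM (SD, n = 5). Differences between these means were smaller than the spread within any group.

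**Figure D2:**
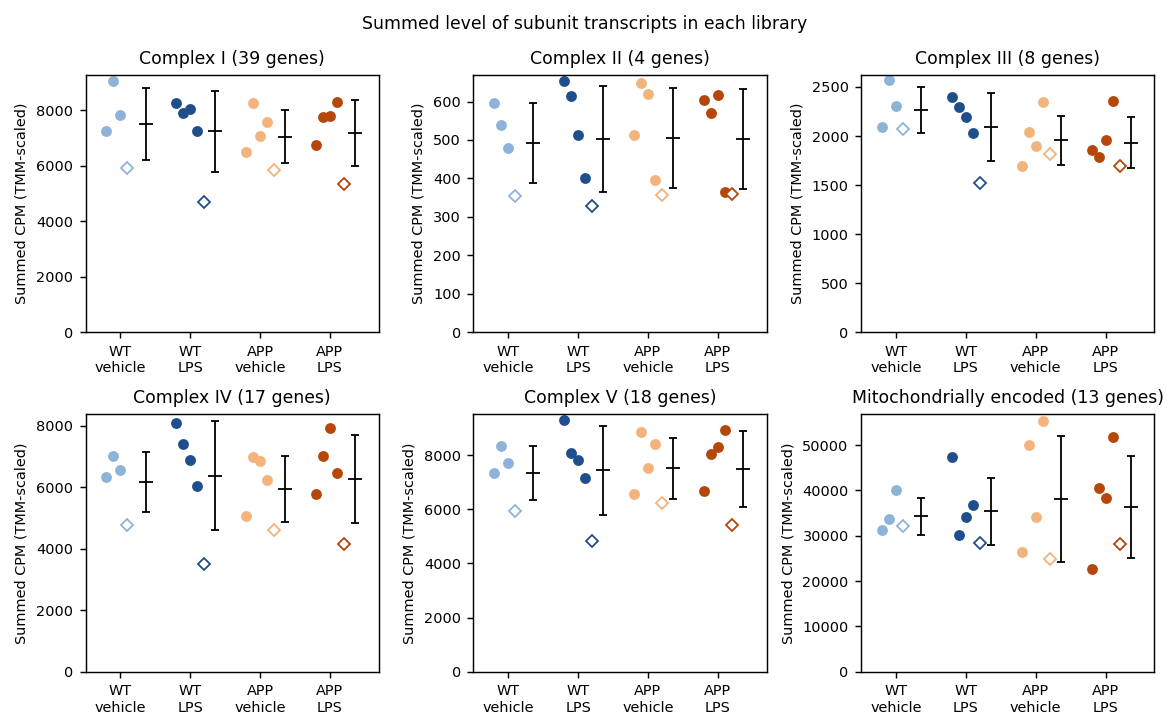
Summed CPM of the members of each complex, and of the 13 mitochondrially encoded genes, in each library; open diamonds mark the libraries numbered 57 to 60, and the dash with bars is the group mean ± SD (n = 4 or 5). In complexes I, II, IV and V each diamond lies below every other library of its group.

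No single subunit was called changed by LPS. With edgeR's quasi-likelihood test and Benjamini-Hochberg adjustment, 0 of 82 members were called in WT, in APP or averaged over genotypes, against 0%, 0% and 0.0213% of all 14113 genes tested. The 3 genes called in the average included the cytokine genes Il1b and Tnf, with log2 changes of 3.05 ± 0.48 and 1.56 ± 0.24 (SE; adjusted p = 0.0148 for both in edgeR). Without WT vehicle replicate 2 the adjusted p in edgeR was 0.05201 for both, and without WT vehicle replicate 1 that of Il1b was 0.07205. DESeq2 and limma voom also called 0 members in these contrasts. At an unadjusted p under 0.05, 2 members were lower in WT, 0 in APP and 1 in the average, and none was higher. The shares of all genes lower at that p were 1.18%, 3.08% and 3.02%. Fitted with the replicate number as a block, LPS in APP called 2 genes in place of 0, and again no member. That fit also blocked WT by replicate number, though only the APP numbers were taken as paired.

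The precision of the abundant members bounded their change. The median log2 change was -0.04 in WT, -0.01 in APP and -0.02 in the average, with medians over all genes of -0.01, -0.03 and -0.02. By complex, the averaged medians were -0.04 for complex I, 0.03 for complex II, -0.05 for complex III, 0.05 for complex IV and -0.03 for complex V. The 95% interval of the averaged change lay within 2-fold for 77 of 82 members, against 42% of all genes. Among genes with a mean of at least 20 CPM the shares were 98.7% of 78 members and 83.9% of all. The 5 members whose interval reached beyond 2-fold were Cox6a2, Cox6b2, Cox7a1, Ndufs7 and Ndufs8. The intervals of all 4 succinate dehydrogenase genes lay within 2-fold. Sdha changed by 0.03 ± 0.21 (SE), Sdhb by 0.02 ± 0.19, Sdhc by -0.06 ± 0.16 and Sdhd by 0.24 ± 0.24 on the log2 scale.

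Ndufs7, an iron-sulfur subunit of the complex I arm that passes electrons to ubiquinone, had the smallest p. It had 57.6, 85.1, 59.7 and 43.6 CPM in WT vehicle and 57.9, 33.6, 42.1, 31.5 and 21.8 CPM in WT LPS. In APP it had 48.2, 68.8, 34.3, 37.4 and 30.5 CPM with vehicle and 18.96, 33.6, 31.7, 36.05 and 30.4 CPM with LPS. The LPS values lay mostly below the vehicle values, but the groups overlapped in both genotypes. The averaged log2 difference was -0.63 ± 0.21 (SE), with a raw p of 0.00729 and an adjusted p of 0.588 in edgeR. Over all alternatives run, its adjusted p ranged from 0.0607 to 0.864.

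The other members with the smallest p in the averaged contrast were Cox6b2, at -2.19 ± 1.15, and Ndufa10, at -0.31 ± 0.17 (log2 ± SE). On the other side stood Uqcrc1 at 0.34 ± 0.29, Atp5f1d at 0.24 ± 0.18 and Atp5mc1 at 0.14 ± 0.14. In WT alone the positive side was led by Atp5mg at 0.26 ± 0.26, Ndufb3 at 0.21 ± 0.25 and Atp5f1a at 0.17 ± 0.22, but Ndufb3 turned to -0.024 with pairs of consecutive library numbers as a block. In APP alone Atp5pf had 0.31 ± 0.26 and Atp5f1c -0.31 ± 0.20. None of these passed the test. No member had LPS and vehicle ranges that did not overlap in WT or in APP, where 1.3% and 0.588% of all genes did.

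**Figure D3:**
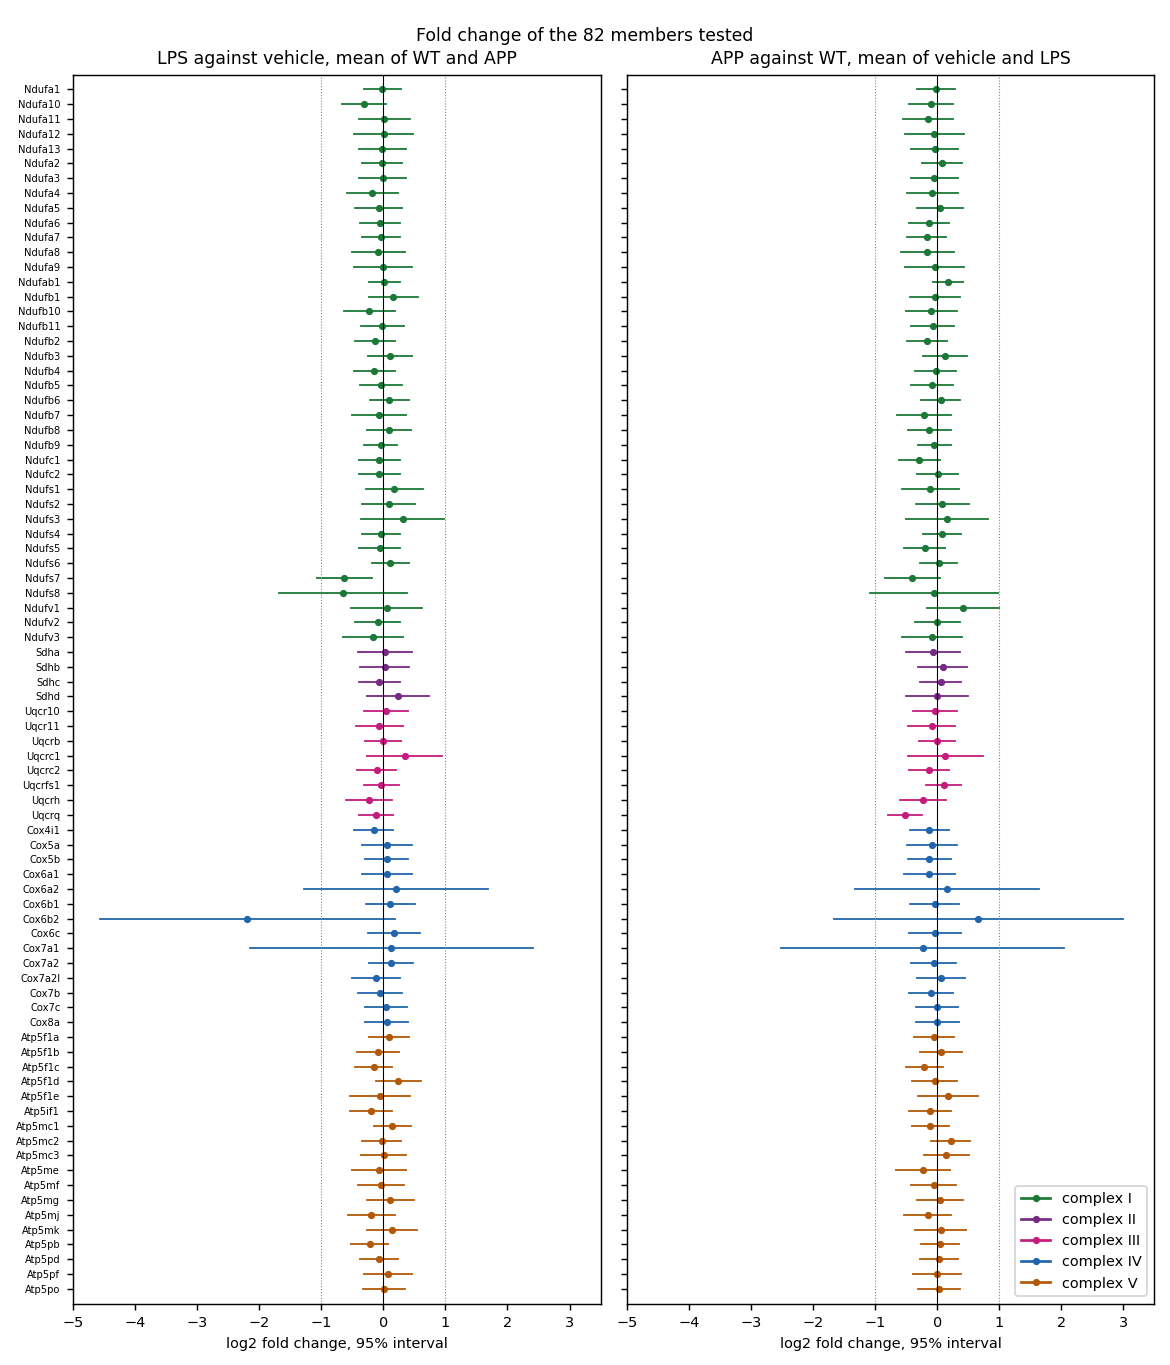
Log2 fold change (point) and 95% interval (line) of the 82 members tested, by complex, for LPS against vehicle averaged over genotypes (left) and APP against WT averaged over treatments (right); dotted lines mark 2-fold. Most intervals cover 0 and lie within 2-fold; those of Ndufs7 on the left and Uqcrq on the right exclude 0 before adjustment.

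The comparison of APP with WT asked whether the transgene changed the subunits before or after LPS. edgeR called 0 of 82 members with vehicle, after LPS or averaged over treatments, against 0% of all genes in each. Unadjusted p under 0.05 was reached by 2, 1 and 1 members, all lower in APP, against 0.822%, 2.37% and 1.64% of all genes lower. The median member difference was -0.07 with vehicle, -0.01 after LPS and -0.04 averaged, with all-gene medians of 0.01, -0.00 and 0.01. The averaged 95% interval lay within 2-fold for 78 of 82 members, against 45.1% of all genes, and for 100% of the 78 members above 20 CPM, against 88.9% of all genes at that level. No member had group ranges that did not overlap with vehicle or after LPS, where 0.843% and 0.496% of all genes did.

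Uqcrq, the small complex III subunit, had the smallest p of all members in the genotype comparison. Its level was 512, 625.5, 548 and 566 CPM in WT vehicle and 588, 525, 518, 457 and 448 CPM in WT LPS. It was 375, 358, 299.6, 374 and 514 CPM in APP vehicle and 332, 263, 336, 410.0 and 479.8 CPM in APP LPS. The APP libraries lay below the WT libraries except for replicate 5 of each APP group, which lay inside the WT range. The averaged difference was -0.51 ± 0.13 on the log2 scale (SE), 0.7003 times the WT level with a 95% interval of 0.579 to 0.847. The raw p was 0.000809 and the adjusted p 1.00 in edgeR, while DESeq2 gave an adjusted p of 0.0111, the only call of a member under any alternative. DESeq2 called 107 genes, 0.758% of all, in this contrast. Over the alternatives the difference ranged from -0.65 to -0.47.

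The APP libraries that overlapped WT were numbered 59 and 60, and the libraries numbered 57 to 60 stood apart for other members, as described below. Without those 4, Uqcrq ranged from 457 to 625.5 CPM in 7 WT libraries and from 263 to 410.0 CPM in 8 APP libraries. Since the libraries left out held the APP values that overlapped WT, this separation follows from leaving them out. The log2 difference was then -0.65 ± 0.13 (SE), with an adjusted p of 0.523 in edgeR. The log2 difference of Uqcrq between LPS and vehicle was -0.15 ± 0.19 in WT and -0.08 ± 0.18 in APP (SE). Other complex III subunits did not reach an unadjusted p under 0.05. The complex III sum was 2262 ± 233 CPM (SD, n = 4) in WT vehicle, 2089 ± 345 (SD, n = 5) in WT LPS, 1957 ± 248.5 (SD, n = 5) in APP vehicle and 1931 ± 258 (SD, n = 5) in APP LPS, with overlapping groups.

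Other members with small p in the averaged genotype contrast were Ndufs7, at -0.40 ± 0.21, and Ndufc1, at -0.29 ± 0.16 (log2 ± SE). On the positive side were Ndufv1, the flavin subunit of complex I, at 0.42 ± 0.28, the c subunit gene Atp5mc2 at 0.22 ± 0.15, and Ndufab1, the mitochondrial acyl carrier protein, at 0.18 ± 0.12. None of these passed the test.

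The interaction asked whether LPS acted differently in APP and WT. edgeR called 0 of 82 members and 0% of all genes, as did limma voom. DESeq2 called 99 genes and 0 members. At an unadjusted p under 0.05, 1 member had a positive interaction, against 0.744% of all genes, and the median over members was 0.04, against -0.03 over all genes. The intervals were wide, within 2-fold for 62 of 82 members and 15% of all genes.

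That member was Ndufa4, a subunit of cytochrome c oxidase. It had 112, 189, 73.9 and 74.2 CPM in WT vehicle and 61.9, 80.4, 88.3, 46.1 and 60.1 CPM in WT LPS. In APP it had 63.6, 64.7, 101.7, 55.9 and 75.4 CPM with vehicle and 95.9, 84.0, 136, 70.9 and 83.7 CPM with LPS. Levels were lower on average with LPS in WT and higher in APP, and the groups overlapped in both. The log2 differences were -0.74 ± 0.29 in WT and 0.38 ± 0.27 in APP, and the interaction was 1.12 ± 0.39 (SE), with a raw p of 0.00955 and an adjusted p of 1.00 in edgeR. WT vehicle replicate 2 held the highest value, and without it the interaction was 0.74 ± 0.36, with a raw p of 0.0547 and an adjusted p of 1.00 in edgeR.

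AA467197 (Nmes1) encodes a paralog of Ndufa4 that is known to rise in inflamed macrophages and replace it in complex IV. It had 37.3, 59.9, 105.6 and 165 CPM in WT vehicle and 144, 66.2, 80.2, 143 and 208 CPM in WT LPS. In APP it had 18.3, 45.3, 38.2, 133 and 272 CPM with vehicle and 61.6, 178, 62.3, 203 and 255 CPM with LPS. Values overlapped between treatments, and the libraries numbered 57 to 60 were the highest of their groups. With vehicle, those numbered 41 and 51 also lay above the lower-numbered libraries. The LPS change was 0.48 ± 0.61 in WT and 0.58 ± 0.58 in APP (log2 ± SE; adjusted p = 1.00 in both in edgeR). Leaving out 1 library moved these to between 0.22 (without WT vehicle replicate 1) and 0.94 (without WT vehicle replicate 4) in WT, and to between 0.31 (without APP vehicle replicate 1) and 1.37 (without APP vehicle replicate 5) in APP. With pairs of consecutive library numbers as a block, the averaged change of AA467197 was 0.74 ± 0.17 (log2 ± SE; adjusted p = 0.0308 in edgeR). Acod1 ranged from 14.2 to 167 CPM with vehicle and from 209.6 to 456 CPM with LPS, with no overlap over 19 libraries. The averaged log2 change of Acod1 was 2.17 ± 0.41 (SE; adjusted p = 0.0802 in edgeR), and without the filter on low counts the adjusted p was 0.0379. DESeq2 and limma voom called Acod1 in this contrast, with adjusted p of 5.88e-06 and 0.000602.

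**Figure D4:**
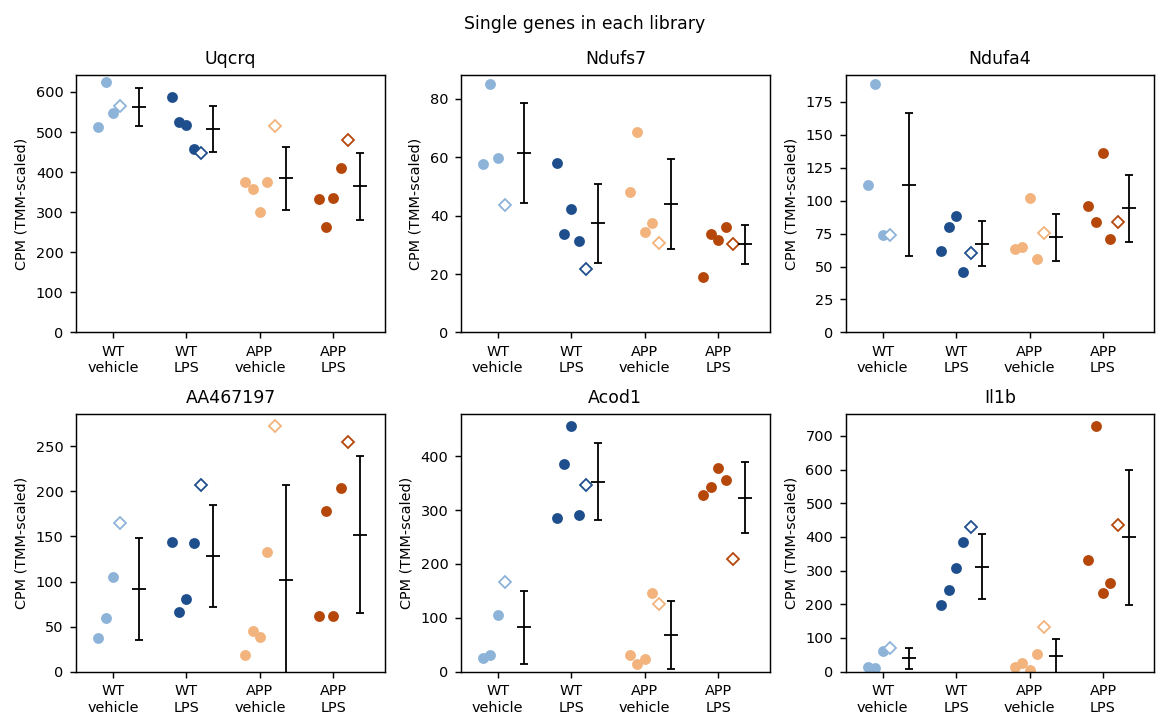
CPM of Uqcrq, Ndufs7, Ndufa4, the Ndufa4 paralog AA467197, Acod1 and Il1b in each library; open diamonds mark the libraries numbered 57 to 60, and the dash with bars is the group mean ± SD (n = 4 or 5), cut off at 0. Uqcrq lies lower in APP apart from the diamonds, and Acod1 and Il1b lie higher in every LPS library than in every vehicle library.

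The subunits also differed between libraries of the same group. The libraries numbered 57, 58, 59 and 60 are 1 from each group, the highest-numbered replicate in each: 57 and 58 are WT cells with vehicle and LPS, and 59 and 60 are APP cells with vehicle and LPS. They were singled out with their values known, so their levels are a description. Their summed member levels were 75.3%, 57.6%, 78.5% and 68.0% of the mean of the other libraries of the group. In them 72, 75, 66 and 72 of 82 members lay below the rest of their group. The median member difference was -0.51, -0.73, -0.44 and -0.48 on the log2 scale, while the median of all genes tested was 0.02, 0.13, 0.06 and 0.15.

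The lower levels covered every complex but not every subunit. In all 4 groups, 63 of 82 members (76.8%) lay below the mean of the rest, against 19.9% of all genes tested. Of these, 30 of 38 belonged to complex I, 4 of 4 to complex II, 3 of 8 to complex III, 13 of 14 to complex IV and 13 of 18 to complex V. The library numbered 57 to 60 was the lowest of its group in all 4 groups for 29 members (35.4%), against 4.3% of all genes. They included the complex IV genes Cox4i1, Cox5a, Cox6a1, Cox6b1, Cox6c, Cox7a2, Cox7b and Cox8a. It was the highest in all 4 for 0 members and 3.49% of all genes.

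Atp5f1e, Ndufv3 and Cox6b1 were among the members lowest against the rest. The typical size is the median member difference given above, -0.44 to -0.73 on the log2 scale. Atp5f1e, subunit epsilon of the ATP synthase stalk, had 118, 129, 148 and 131 CPM in these libraries and 177 to 412 CPM in the other 15. Ndufv3, an accessory subunit at the flavin end of complex I, had 68.5, 57.7, 44.3 and 34.1 CPM there and was on average 0.481 times the rest of the group. Cox6b1, which faces the intermembrane space in complex IV, had 336, 278, 246 and 273 CPM there and was 0.532 times the rest. The complex III sum was 89.3%, 68.2%, 90.9% and 85.3% of the mean of the rest, and the lowest of its group except in APP vehicle. Uqcrq and Ndufv1 were on average 1.16 and 1.31 times the rest.

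**Figure D5:**
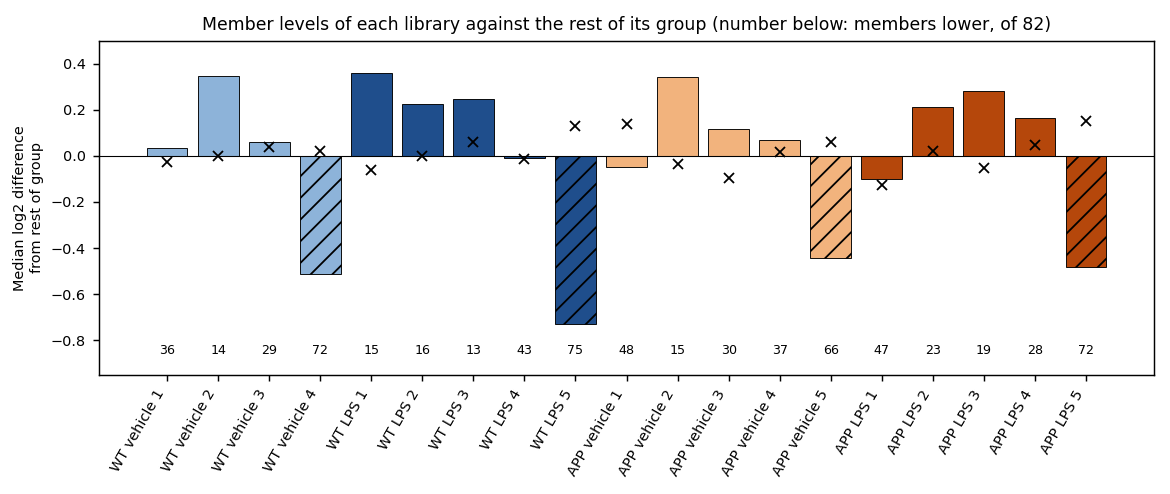
Median log2 difference of the 82 members from the mean of the rest of their group, per library (bars; hatched for the libraries numbered 57 to 60), with the median of all genes tested as a cross and the number of members below the rest printed under each bar. The hatched bars lie between -0.73 and -0.44, and the others between -0.10 and 0.36.

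Markers of the cultured cells moved with these libraries. The summed level of 18 microglia and macrophage markers was 1685 to 3622 CPM in them and 5658 to 10851 CPM in the other 15. The summed level of 7 markers of border-associated macrophages was 785 to 1784 CPM, against 1899 to 6498 CPM. The 20 stromal genes summed to 39312 to 47098 CPM in these libraries, inside the 25677 to 80059 CPM of the others. Without Lrrc17, which held most of that sum, the other 19 had 2618 to 5610 CPM, against 1248 to 4369 CPM. The part of these differences in the subunit levels was not tested. The 13 mitochondrially encoded genes summed to 24833 to 32081 CPM in these libraries and 22645 to 55245 CPM in the others. Within groups this was 91.8%, 76.2%, 59.97% and 73.8% of the mean of the rest, lower in all 4, and 7 of the 13 genes lay below the rest in all 4 groups.

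The promoters of the members were searched for motifs of factors known to act on respiratory genes. RefSeq promoters of GRCm38.p6, from 250 bases before to 50 bases after a start, were found for 68 members. A gene with more than 1 promoter was counted if any of them held the letters. The NRF1 motif, read as GCGCA, any base and GCGC on either strand, was in 17 (25%), against 5.19% of 27025 genes and 10.6% of the 10848 tested genes with a promoter. The ETS motif CCGGAAG, also on either strand, was in 16 (23.5%), against 9.93% and 18.5%. The YY1 motif AAGATGGC, searched likewise, was in 10 (14.7%), against 3.19% and 4.89%. At least 1 motif was in 37 (54.4%), against 16.4% and 29.97%. By complex, NRF1 matches stood in 7 of 34 complex I promoters, 2 of 3 in complex II, 1 of 5 in complex III, 1 of 12 in complex IV and 6 of 14 in complex V. A match is a description of these letters and not a binding site, and its relation to the level of a member was not tested.

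One match per complex is printed 5′ to 3′ on the gene's strand, to show where such a match lies in a gene of each complex, with the motif in capitals on whichever strand it reads. The Ndufa6 window is chr15:82354249-82354278 (minus strand), Sdha chr13:74350319-74350348 (minus), Uqcrc1 chr9:108936643-108936672 (plus), Cox6a1 chr5:115349101-115349130 (minus) and Atp5mc3, named Atp5g3 in RefSeq, chr2:73911295-73911324 (minus).
Ndufa6: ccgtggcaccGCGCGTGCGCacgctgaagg
Sdha: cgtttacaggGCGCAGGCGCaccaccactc
Uqcrc1: cttccttacaGCGCTTGCGCctcagactcc
Cox6a1: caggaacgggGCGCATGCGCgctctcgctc
Atp5mc3: gagccgcaccGCGCTTGCGCgcccagcccc
The motif begins 98 bases before the start in Sdha and 162 bases before it in Cox6a1, and lies after the start in the other 3 genes. In Atp5mc3 that is a start inside the gene, whose 5′ end is at chr2:73912464.

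The genes around the complexes were read from 12 lists. Of these, only the list of LPS response genes tied to respiration held calls by edgeR: Il1b and Tnf, both higher with LPS in the average over genotypes, 2 of 8 genes tested. It was drawn up from genes known to respond to LPS, so its direction is no independent evidence. Of all 14113 genes tested, 6951 lay above 0 with LPS in WT and 6618 in APP, with medians of -0.01 and -0.03. Of 30 assembly factors of complex IV, 23 lay above 0 with LPS in WT and 19 in APP, with medians of 0.15 and 0.13 and no call. Assembly factors of complex I were even, with 10 of 20 above 0 in both. Of 21 genes for electron carriers and coenzyme Q synthesis, 4 reached an unadjusted p under 0.05 upward in WT and 0 in APP, against 2.48% and 1.74% of all genes. The interaction reached that p for 1 of the 21, Coq7, on the negative side, against 1.98% of all genes. The 4 included Gpd2, the glycerol phosphate dehydrogenase that feeds electrons to ubiquinone, at 0.73 ± 0.22 in WT and 0.37 ± 0.21 in APP (log2 ± SE; adjusted p = 1.00 in both in edgeR), with an interaction of -0.36 ± 0.30. Of 19 tricarboxylic acid cycle genes, 7 lay above 0 in WT and 9 in APP. For APP against WT averaged over treatments, edgeR called no gene of the 12 lists.

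The mitochondrially encoded subunits made up 2.26% to 5.52% of a library, and edgeR called 0 of 13 in every contrast. Their median log2 change with LPS was 0.10 in WT and -0.05 in APP. The other 12 had counts in every library, while mt-Nd4l was at 0 in 11. It had 2.47, 177, 264, 22.5 and 74.9 CPM in APP vehicle and 0 in all 5 APP LPS libraries, so these groups did not overlap. In WT it was at 0 in 3 of 4 vehicle and 3 of 5 LPS libraries. For LPS in APP, mt-Nd4l had a raw p of 0.00168 and an adjusted p of 0.956 in edgeR, while DESeq2 gave an adjusted p of 8.08e-12.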

How the data were processed

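The 19 libraries were 3′ tag libraries made from RNA (QuantSeq FWD, with molecular identifiers and ERCC spike-ins, 100-base single-end reads, per the labels' protocols). The authors deposited 1 table of estimated counts per library, all whole numbers, and FastQC, Trimmomatic, kallisto and DESeq2 are named in the submitters' processing notes. The genome build, the handling of the molecular identifiers and of reads shared with gene copies are each not given in the sources used here. The tables held no spike-in rows. Each library's group came from its labels. The members and gene lists were chosen with earlier results of these data known.

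The 4 groups were fitted together with edgeR 4.0.16 (R 4.3.3; TMM scaling, filterByExpr, quasi-likelihood test), and p-values were adjusted over all 14113 genes tested, called at 0.05. A further 2828 genes were left out by the filter. CPM used the TMM-scaled totals, and no member of a complex was left out of a sum. The code was tested on simulated data, with recovery required only at a dispersion (spread beyond counting error) of 0.05. The common dispersion of these data was 1.05, so that requirement does not speak to power here. Alternatives were RLE scaling, library totals, no filter, DESeq2 1.42.0, voom in limma 3.58.1, leaving out each library or the libraries numbered 57 to 60, and 2 replicate blocks. Named were members called, the 3 with the smallest p in each direction of each of 7 contrasts, the highest and lowest of each complex, the Sdh genes, Atp5if1, and restricted isoforms with their partners. Members singled out in the account of the libraries numbered 57 to 60, and those named for their level beside these, were chosen after their values were seen.

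Replicate numbers were checked for pairing by the correlation, across genes, of deviations from group means. In APP all 5 same-numbered pairs were above 0.1 (0.13 to 0.35) and were taken as paired. In WT the 4 pairs had -0.09 to 0.07 and were not. The main fit held no block in either genotype, so its p-values take no account of any pairing.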

Additional observations from a re-analysis of the deposited data

Results flagged for a closer look

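In 11 of 169 groups of 4 or 5 libraries, 1 library lay far from the others by Dixon's criterion, which chance alone meets in about 1 in 20 groups. WT LPS replicate 5, the library numbered 58, was the lowest of its group for the complex I sum, at 4695 CPM against 7254 to 8273 in the others. It was also the lowest for Cox7c, at 983 CPM against 1780.0 to 2071. The same library was the highest for rare isoforms, with 0.455 CPM of Cox7b2 and 1.02 CPM of Ndufa4l2, where the other 4 had 0. Cox4i2 had 1.37 CPM in WT vehicle replicate 3 and 2.20 CPM in APP LPS replicate 2, and 0 in the rest of both groups. Cox6b2 reached 18.02 CPM in WT vehicle replicate 2, 3.21 CPM in WT LPS replicate 1 and 18.7 CPM in APP vehicle replicate 1. Cox7a1 reached 19.3 CPM in WT vehicle replicate 2, against 0.161 to 1.10 CPM in the others. Ndufb3, an accessory subunit of complex I, had 437 CPM in APP vehicle replicate 2, against 269 to 317 CPM in the others. Of these 11, 8 concern isoforms with means under 6 CPM.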

How the results depend on the processing

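Over 27 settings, 2205 of 2236 alternative values for 139 results were counted as unchanged. For the change of a gene, that meant the same direction and side of the threshold. Counts, medians and mean levels had only to stay within a set limit. For a mean level the limit was the SD of its group. Leaving out 1 library of a group cannot exceed that limit, so those values could not fail. Among the values that changed, 29 went beyond their limit, 1 reversed and 1 crossed the threshold. The median member change stayed between -0.16 and 0.15. No member was called under any setting other than DESeq2, which called 1 member (Uqcrq, -0.51) in the averaged genotype contrast. The number of genes called over the whole table did move, and the cause was not tested. DESeq2 called 89 genes for LPS in WT, 76 in APP and 178 in the average, 64, 69 and 107 for APP against WT with vehicle, after LPS and averaged, and 99 for the interaction. limma voom called 4 for LPS in APP, 6 in the average and 1 for APP against WT after LPS. Without the libraries numbered 57 to 60, edgeR called 4, 31 and 1 in the same contrasts, in place of 0, 3 and 0. Leaving out 1 library at a time gave 0 to 2 genes for LPS in APP, 0 to 11 in the average (0 without WT vehicle replicate 2, 1 without WT vehicle replicate 1, 5 without APP vehicle replicate 4, 6 without APP vehicle replicate 5, 8 without WT vehicle replicate 4 and 11 without APP LPS replicate 5) and 0 to 1 for APP against WT after LPS.

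With the replicate number as a block, 2 genes were called for LPS in APP, 39 in the average and 1 for the interaction. These counts come from a single fit of both genotypes. It also blocked WT by replicate number, which the correlations did not pair. With pairs of consecutive library numbers as a block, whose pairing the labels do not state, 21 genes were called for LPS in WT, 83 in APP and 211 in the average, and Ndufb3 in WT turned from 0.21 to -0.024. In APP both blocks held the same pairs, so the fits differed only in how WT was blocked. Neither block called a member. Of the vehicle libraries, all 4 WT and 4 of 5 APP correlated best with the LPS library of consecutive number. This is a hint from the data, not the design. Depth limits what can be said of isoforms at 0, for which 3 counts correspond to 0.0962 to 0.249 CPM. For the 5 members with averaged LPS intervals beyond 2-fold, the parts of depth and of spread between libraries were not separated.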

Other observations

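In pairs of libraries with consecutive numbers, 4 in WT and 5 in APP, some members kept 1 direction with LPS throughout. Ndufs7, Cox7a2l and Uqcrh (the acidic hinge protein of complex III) were lower with LPS in all 9 pairs, 3 of 82 members (3.66%), against 1.06% of all genes tested. None was higher in all 9, against 0.935% of all genes. Ndufa4 was lower in all 4 WT pairs and higher in all 5 APP pairs, 1 of 82 members (1.22%), against 0.0921% of all genes (13 of 14113). The labels do not state this pairing, and the pattern was noticed in these data.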
